A study of Homo sapiens with 2 samples.

Results

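The 45 immediate-early and AP-1 genes examined here were taken by symbol from the RefSeq gene table of GRCh38.p14. All 45 were found, among 19974 protein-coding genes on chromosomes 1 to 22 and X, which left 19929 other genes to set beside them. The chromatin protein DEK had been precipitated from 786-O, a human renal carcinoma cell line kept in medium with serum, and its DNA sequenced (ChIP-seq). Both libraries carry the genotype wild type, the antibody DEK and a title that says negative control, with Cas9 in their description, and they were taken as replicates of 1 group. Whether the cells or the precipitation served as the control is not stated. No edited, input or other-antibody library was analysed here, and nothing states that the replicates came from separate cultures, so their spread may be technical.

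Immediate-early genes are switched on within minutes of a growth factor, serum or stress signal, without new protein synthesis. MAP kinases relay the signal to transcription factors already in place, among them SRF, which binds the CArG box of the serum response element together with ternary complex partners. The first products include the FOS and JUN proteins, which pair to form the AP-1 factor, the EGR and KLF zinc finger factors, and proteins that end the response, such as the DUSP phosphatases and the mRNA decay factors of the ZFP36 family. Most of these genes are short, and the members fitted that description, with a median span of 4.50 kb against 24.3 kb for the other protein-coding genes.

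The replicates had 19015 and 24457 peaks on the chromosomes used, and overlapping peaks formed 12590 shared regions. Over these regions the median summit fold enrichment, as deposited by the authors, was 4.11 for replicate 1 and 4.10 for replicate 2. The median pileup, the count of fragments stacked at the summit, was 21 and 22, solved from the deposited fold and p, so a single region rests on few fragments. A gene counted as occupied when a shared region overlapped its span plus a flank of 1, 3 or 10 kb on each side. A gene without a region had none past the authors' threshold at this depth, which does not show that DEK was absent.

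Because the results turn on where DEK regions lie relative to the start of transcription, start-site sequences are shown first. RefSeq promoter windows of 300 bases, from 250 before to 50 after a listed start (GRCh38.p14), were at hand for 33 members with 41 windows. ARC, CCN1, DUSP4, DUSP5, EGR3, FOSL1, GADD45A, IER3, KLF10, MAFK, TRIB1 and ZFP36L2 had no entry. None of the 41 windows overlapped a shared DEK region, so 0 of 33 members were called, beside 4.55% of 15780 other protein-coding genes. A count of 0 of 33 allows a share of up to 9.09%, and the members cannot be told apart from the other genes on this measure.

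Peaks of a single library reached 3 of the 33 start sites, those of EGR1, SRF and JUN, and these are printed with that of FOS, which had no peak within 10 kb, and those of DUSP1, ZFP36 and ID1, which had shared regions 1 to 3 kb downstream. Capitals mark the CArG box, the CRE (TGACGTCA), the GC box (GGGCGG) and the TATA box (TATAAA) on either strand. The AP-1 element (TGANTCA) was also searched and occurs as an exact match in none of these 7 windows. Near matches to these patterns, such as tgacatca in the JUN window, were not searched and are not marked. All windows run 5′ to 3′ along the gene.
EGR1, chr5:138465229-138465528, plus strand: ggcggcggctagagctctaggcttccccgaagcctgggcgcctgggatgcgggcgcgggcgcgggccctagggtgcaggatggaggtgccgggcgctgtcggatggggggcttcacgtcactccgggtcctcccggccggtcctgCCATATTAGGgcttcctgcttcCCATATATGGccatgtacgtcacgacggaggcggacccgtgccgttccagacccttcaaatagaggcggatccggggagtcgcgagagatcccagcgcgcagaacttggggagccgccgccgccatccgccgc
SRF, chr6:43171019-43171318, plus strand: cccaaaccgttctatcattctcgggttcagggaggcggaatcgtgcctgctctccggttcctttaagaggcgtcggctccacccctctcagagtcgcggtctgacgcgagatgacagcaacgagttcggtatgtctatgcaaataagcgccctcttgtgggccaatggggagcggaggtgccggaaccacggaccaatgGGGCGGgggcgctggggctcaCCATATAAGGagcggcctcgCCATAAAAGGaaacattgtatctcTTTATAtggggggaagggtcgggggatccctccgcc
JUN, chr1:58783998-58784297, minus strand: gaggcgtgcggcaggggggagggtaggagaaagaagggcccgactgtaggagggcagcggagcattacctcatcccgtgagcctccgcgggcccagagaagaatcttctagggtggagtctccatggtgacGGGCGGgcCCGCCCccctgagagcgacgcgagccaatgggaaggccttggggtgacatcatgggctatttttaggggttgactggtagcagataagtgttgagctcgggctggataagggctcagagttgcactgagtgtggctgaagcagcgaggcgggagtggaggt
FOS, chr14:75278578-75278877, plus strand: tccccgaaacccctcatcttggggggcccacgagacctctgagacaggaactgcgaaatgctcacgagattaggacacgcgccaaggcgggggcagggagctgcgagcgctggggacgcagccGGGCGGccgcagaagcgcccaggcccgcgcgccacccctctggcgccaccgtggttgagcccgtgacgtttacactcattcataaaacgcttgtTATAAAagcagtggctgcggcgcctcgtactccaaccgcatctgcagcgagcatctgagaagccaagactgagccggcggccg
DUSP1, chr5:172771146-172771445, minus strand: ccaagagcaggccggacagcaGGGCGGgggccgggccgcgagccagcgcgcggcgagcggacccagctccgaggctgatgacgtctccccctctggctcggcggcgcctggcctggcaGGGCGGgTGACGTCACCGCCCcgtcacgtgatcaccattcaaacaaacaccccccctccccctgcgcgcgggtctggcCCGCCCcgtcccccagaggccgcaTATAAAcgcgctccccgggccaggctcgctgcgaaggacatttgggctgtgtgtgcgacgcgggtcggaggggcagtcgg
ZFP36, chr19:39406597-39406896, plus strand: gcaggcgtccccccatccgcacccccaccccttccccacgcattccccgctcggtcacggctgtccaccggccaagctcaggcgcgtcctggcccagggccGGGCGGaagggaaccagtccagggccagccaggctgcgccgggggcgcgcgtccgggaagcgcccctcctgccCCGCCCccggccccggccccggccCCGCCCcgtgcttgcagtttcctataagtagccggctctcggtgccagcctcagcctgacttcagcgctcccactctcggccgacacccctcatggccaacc
ID1, chr20:31605039-31605338, plus strand: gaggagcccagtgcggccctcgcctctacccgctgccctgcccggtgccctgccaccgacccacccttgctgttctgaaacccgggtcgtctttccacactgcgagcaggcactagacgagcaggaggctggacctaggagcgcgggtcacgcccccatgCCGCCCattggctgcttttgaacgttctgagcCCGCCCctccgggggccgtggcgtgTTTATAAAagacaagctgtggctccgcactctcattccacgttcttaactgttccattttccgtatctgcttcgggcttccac

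At EGR1, whose window holds 2 CArG boxes, the peak of replicate 1 covered bases 1 to 63 and ended before both boxes. It had a fold enrichment of 3.68 and a pileup of 16, and replicate 2 had no peak there. At SRF, which has 2 CArG boxes in its own promoter window, the peak of replicate 1 covered bases 1 to 182 and also ended before both boxes. It had 2.95-fold with a pileup of 21, and replicate 2 again had none. At JUN the peak came from replicate 2 and covered bases 124 to 300 at 3.46-fold with a pileup of 24. Each of these start sites was thus reached in 1 library alone. Peaks of replicate 1 overlapped a window of 2 of 33 members, beside 6.74% of other genes, and peaks of replicate 2 overlapped 1 of 33, beside 7.92%.

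Counts of these letters over the 33 members are given as a description of the windows, per gene. A CArG box was present in a window of 3 of 33 members (9.09%), EGR1, EGR2 and SRF, and in 1.67% of other genes. Sequence outside the windows was not searched. A gene without a match, such as FOS, may thus have a CArG box beyond its window. A TATA box was found in 10 members (30.3%) and in 12.4% of other genes. The CRE, the site of CREB and ATF proteins, stood in 4 members (12.1%), DUSP1, JUND, MAFF and ZFP36L1, and in 2.98% of other genes. GC boxes were frequent in both, at 72.7% of members and 64.2% of other genes. The AP-1 element was present in 1 member, FOSL2, and in 8.05% of other genes.

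With a flank of 1 kb, 11 of the 45 members had a shared DEK region (24.4%, 95% Wilson interval 14.2 to 38.7), beside 24.4% of other protein-coding genes, so the shares differed by only 0.0378 points at this width. With 3 kb, 18 members had one (40.0%, 27.0 to 54.5), beside 26.8%. With 10 kb, 23 members had one (51.1%, 37.0 to 65.0), beside 32.9%. Over all genes, the members' share thus stood above the others' at the wider flanks, by 13.2 percentage points at 3 kb and 18.3 at 10 kb. The other genes' share at 3 kb lay just under the lower end of the members' interval. These intervals cover counting error only, and a higher share of this list at 3 kb around gene ends had been seen in these data before, so the difference is a description. Requiring a fold enrichment of at least 5 in both libraries left 0, 0 and 2 members at the 3 widths, beside 2.55%, 2.78% and 3.48% of other genes.

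**Figure D1:**
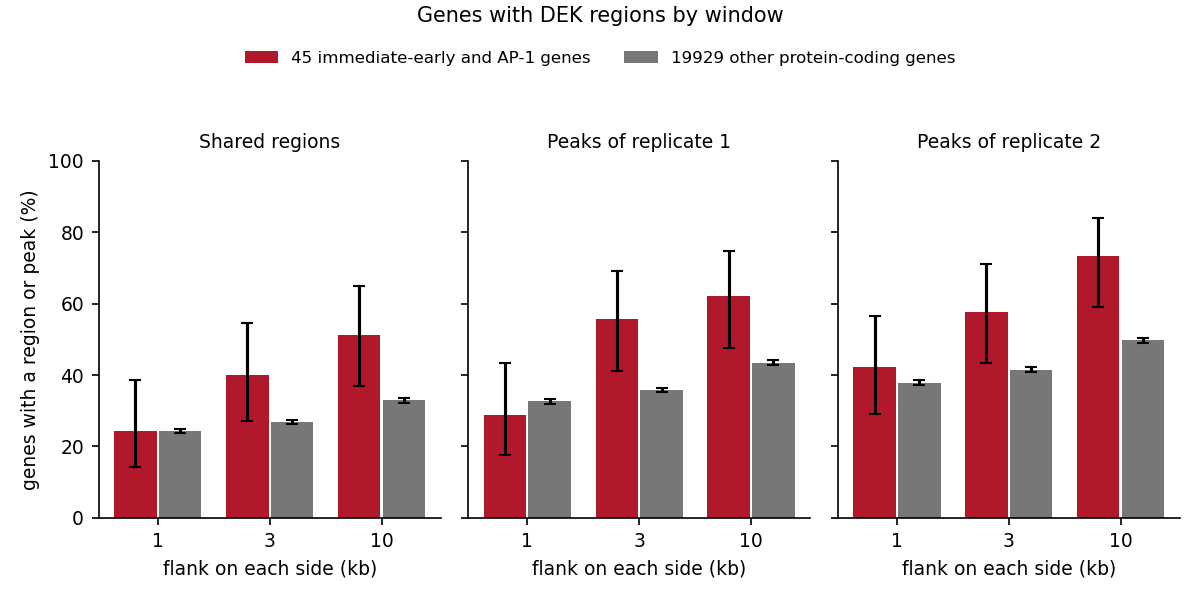
Share of genes (%) with a shared DEK region or with a peak of 1 replicate in the gene span plus 1, 3 or 10 kb. Red bars are the 45 immediate-early and AP-1 genes and grey bars the 19929 other protein-coding genes, with 95% Wilson intervals. For shared regions the bars are level at 1 kb (24.4% and 24.4%) and apart at 10 kb (51.1% and 32.9%).

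Each library alone gave the same order at the wider flanks. Peaks of replicate 1 reached 13 members at 1 kb (28.9%, beside 32.7% of other genes), 25 at 3 kb (55.6%, beside 35.8%) and 28 at 10 kb (62.2%, beside 43.4%). Peaks of replicate 2 reached 19 members at 1 kb (42.2%, beside 37.9%), 26 at 3 kb (57.8%, beside 41.5%) and 33 at 10 kb (73.3%, beside 49.7%). At 1 kb the libraries thus differed in sign, and at 3 and 10 kb the members' share was higher in both. Span length moves with these shares. Among genes with a span under 10 kb, a limit chosen after seeing the data, 7 of 37 members had a shared region at 1 kb (18.9%, beside 10.3% of 5621 other genes). At 3 kb 13 of these members had one (35.1%, beside 13.9%), and at 10 kb 18 had one (48.6%, beside 22.8%).

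Among the AP-1 subunits, 2 of 7 had a shared region at 1 kb, 4 at 3 kb and 5 at 10 kb, and FOS and JUN had none. The shares of other protein-coding genes at these widths were 24.4%, 26.8% and 32.9%, and they apply to the families below as well. With so few genes in a family, such counts are a description only. FOSB had 1 inside the gene (chromosome 19, 45470048 to 45470617), 2398 bp past its start, with a fold enrichment of 4.02 in replicate 1 and 4.45 in replicate 2. FOSL2, the FRA2 gene, had 1 inside (chromosome 2, 28408967 to 28409580), with 2.93 in replicate 1 and 3.29 in replicate 2. This FOSL2 region ranked low by fold, at percentile 9.49 of all shared regions, although its pileup was 35 in replicate 1 and 43 in replicate 2, well above the median region. FOSL1, which encodes FRA1, had a region 2768 bp beyond its end of higher coordinate at 4.08 ± 0.134 (SD, n = 2). JUNB was reached at 3 kb only by the edge of a region, 2953 bp downstream, that overlaps PRDX2 and had 3.24 ± 0.347. The other region at JUNB, 7008 bp upstream at 4.30 ± 0.239, lay in HOOK2. JUND, the JUN family member often expressed without a stimulus, had 1 region 4595 bp downstream at 3.18 ± 0.0982, whose nearest gene was IQCN. The AP-1 regions beyond 3 kb were thus all nearer to a neighbour than to the subunit gene.

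MAFK, 1 of the small MAF partners of bZIP factors, held 2 regions inside the gene, both within the overlapping long non-coding RNA gene LOC100128653. Their fold enrichment was 4.16 and 3.24 in replicate 1 and 3.42 and 3.87 in replicate 2, so the libraries ordered them differently. MAFF had no peak within 10 kb in either library. The serum response factor gene SRF had a region inside the gene (chromosome 6, 43172610 to 43174025), 1974 bp past its first start, at 4.22 in replicate 1 and 4.73 in replicate 2. It began 165 bp past the second RefSeq start window of SRF, the nearest approach of a shared region to a start window of these 33 members.

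None of the 3 EGR genes had a shared region at any width, and EGR2 and EGR3 had no peak within 10 kb in either library. Of the KLF factors, KLF6, a widely expressed early-response factor, had 2 regions, and KLF2, KLF4 and KLF10 had none that both libraries shared. The stronger KLF6 region straddled the 3′ end of the gene (chromosome 10, 3775309 to 3776021), with 4.70 in replicate 1 and 3.52 in replicate 2 and pileups of 46 and 38. The weaker, inside the gene, had 2.63 ± 0.0696, at percentile 1.37. Both KLF6 regions lay over 8 kb past the start, at the far side of a gene of 9214 bp.

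The ID genes encode inhibitors of basic helix-loop-helix factors, and ID1 and ID3 had regions while ID2 did not. ID3 had 1 region (chromosome 1, 23555481 to 23557003) with its summit 1805 bp downstream, at 4.32 in replicate 1 and 3.93 in replicate 2. This ID3 region also overlaps the gene LOC124903876. ID1 had a broad region (chromosome 20, 31607161 to 31608983) with its summit 1242 bp downstream, at 3.16 in both libraries and with pileups of 40 and 44. The summits of the libraries lay 750 bp apart there, the widest gap of all the members' regions. A second ID1 region lay 2222 bp upstream at 3.26 ± 0.083. ETS2, a target and effector of RAS and MAP kinase signalling, had 1 region inside the gene at 3.50 in each library and another 6826 bp downstream at 5.61 in replicate 1 and 3.82 in replicate 2. BHLHE40 and HES1, both helix-loop-helix repressor genes, had no shared region.

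The downstream ID1 region also holds MIR3193, a microRNA gene, and this hairpin is the only stretch of a member's DEK region whose sequence was at hand. It is printed 5′ to 3′ with the seed of the mature form, bases 2 to 8, in capitals (RefSeq, GRCh38.p14, chr20:31607186-31607240, plus strand).
MIR3193: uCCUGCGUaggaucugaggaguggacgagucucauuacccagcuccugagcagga

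All 3 mRNA decay factors, which bind AU-rich elements in short-lived transcripts, had a shared region at 3 kb, and ZFP36L2 had it at 1 kb. ZFP36, which encodes tristetraprolin, had downstream regions at 1955 and 2591 bp (chromosome 19, 39411151 to 39411569 and 39411593 to 39412407). They had 3.24 ± 0.599 and 4.13 ± 0.183 (SD, n = 2), and the second holds the transfer RNA gene TRI-TAT1-1. Both were nearer to PLEKHG2 than to ZFP36. The other ZFP36 region lay 5087 bp upstream (chromosome 19, 39401157 to 39402009), nearest to MED29, at 4.64 in replicate 1 and 3.76 in replicate 2. ZFP36L1 likewise had a pair downstream, at 1606 and 2599 bp (chromosome 14, 68785623 to 68786450 and 68784652 to 68785359), with 3.29 ± 0.151 and 3.58 ± 0.466. ZFP36L2 had 1 region across its end of lower coordinate (chromosome 2, 43221867 to 43222666), at 3.26 in replicate 1 and 4.10 in replicate 2.

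Among the MAP kinase phosphatases, which switch off ERK, JNK and p38, DUSP1 and DUSP5 had regions, and DUSP2, DUSP4 and DUSP6 had none shared. DUSP1 had 4 within 10 kb, the most of any member. A pair lay 1401 and 2644 bp downstream (chromosome 5, 172765985 to 172766883 and 172765324 to 172765632). Replicate 1 gave this pair 4.11 and 4.46 and replicate 2 gave 2.99 and 3.28, so replicate 1 was higher at both. The other DUSP1 regions lay 9794 bp downstream, at 5.15 ± 0.0599, and 6461 bp upstream, at 3.11 ± 0.149. They overlap the genes LOC101928093 and LOC105377730, in that order. DUSP5 had 1 region 1424 bp beyond its end of higher coordinate, at 5.64 in replicate 1 and 3.75 in replicate 2.

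The antiproliferative genes BTG1 and BTG2 each had 1 region inside the gene close behind the start. That of BTG2, a p53 target, lay 1204 bp past the start at 4.26 in replicate 1 and 4.06 in replicate 2 (chromosome 1, 203306534 to 203306879). That of BTG1 lay 1474 bp past the start at 3.50 in replicate 1 and 3.72 in replicate 2 (chromosome 12, 92144087 to 92144456). CCN1, which encodes a matricellular ligand of integrins, had a region 1974 bp beyond its end of higher coordinate, at 4.24 in replicate 1 and 2.88 in replicate 2. Its relative CCN2 had none shared.

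The remaining members had regions at 10 kb or not at all. PLK3, a polo-like kinase gene, had the region with the highest mean fold of all members, 5.61 in replicate 1 and 5.79 in replicate 2, but it lay 6539 bp upstream and nearest to BEST4. IER2 had 1 region 6995 bp upstream at 4.11 in replicate 1 and 3.90 in replicate 2, nearest to STX10. IER3 had 3.48 ± 0.919 at 7896 bp, and TRIB1, a pseudokinase gene, 4.43 ± 0.52 at 5241 bp, both beyond the end of higher coordinate. PLK2, SGK1, IER5, ARC, GADD45A and GADD45B had no shared region.

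Set by orientation, the regions of the 33 members with a listed start numbered 7 inside the gene, 13 past its end and 6 before its start. A summit lay inside 7 of these members (21.2%): BTG1, BTG2, ETS2, FOSB, FOSL2, KLF6 and SRF. The share was 20.7% of 15780 other genes, and 4.70% of the 4233 of them with a span under 10 kb. The members were not limited to short genes, and FOSL2, ETS2 and SRF have spans of 24460, 19773 and 10238 bp. The short genes are thus not matched to the members in span. In the stretch from 1 to 3 kb downstream, 5 members had a shared summit (15.2%, 95% Wilson interval 6.65 to 30.9): DUSP1, ID1, ID3, ZFP36 and ZFP36L1. Of the other genes 2.47% had one there, and 2.98% of the short ones. In the first 1 kb upstream no member had a shared summit (0 of 33, 95% Wilson upper limit 10.4%). The share was 3.80% of other genes and 4.28% of the short ones. This pattern was chosen after the positions had been seen.

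**Figure D2:**
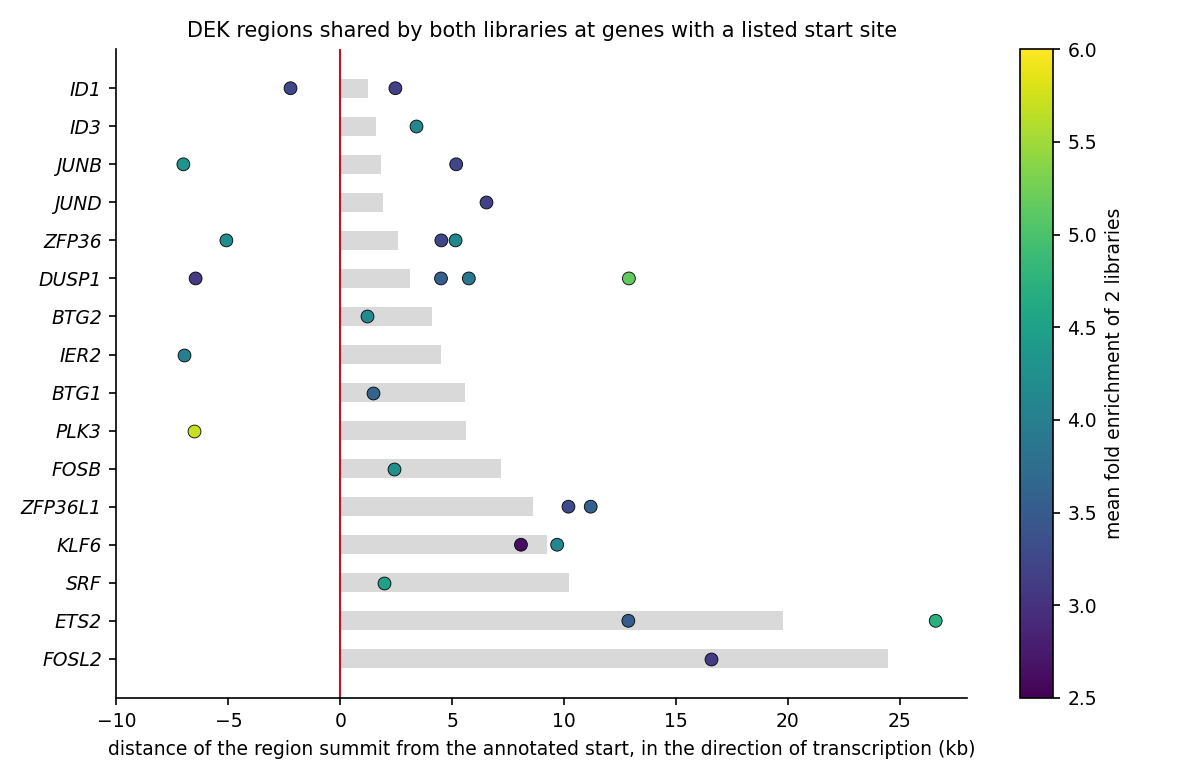
Position of each shared region's summit at the 16 members with a listed start and a region within 10 kb, in kb from the annotated start in the direction of transcription. Grey bars are gene spans, the red line is the start and colour is the mean fold enrichment of both libraries. No point falls between the start and 1 kb before it, and pairs of points follow the ends of ZFP36, DUSP1 and ZFP36L1.

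Per unit length, the members had 121 shared regions per Mb from 1 to 3 kb downstream, beside 12.9 per Mb at other genes and 15.6 per Mb at other genes under 10 kb. Inside the gene there were 20.9 per Mb, beside 5.58 and 10.5 per Mb. The members here again include genes with spans over 10 kb. From 3 to 10 kb upstream there were 21.6 per Mb, beside 6.91 and 8.64 per Mb. The wider surroundings also held more regions, with 12.9 per Mb from 10 to 50 kb on both sides of members, beside 7.73 per Mb at other genes and 8.92 at short ones. The part of these surroundings in the downstream count was not tested.

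**Figure D3:**
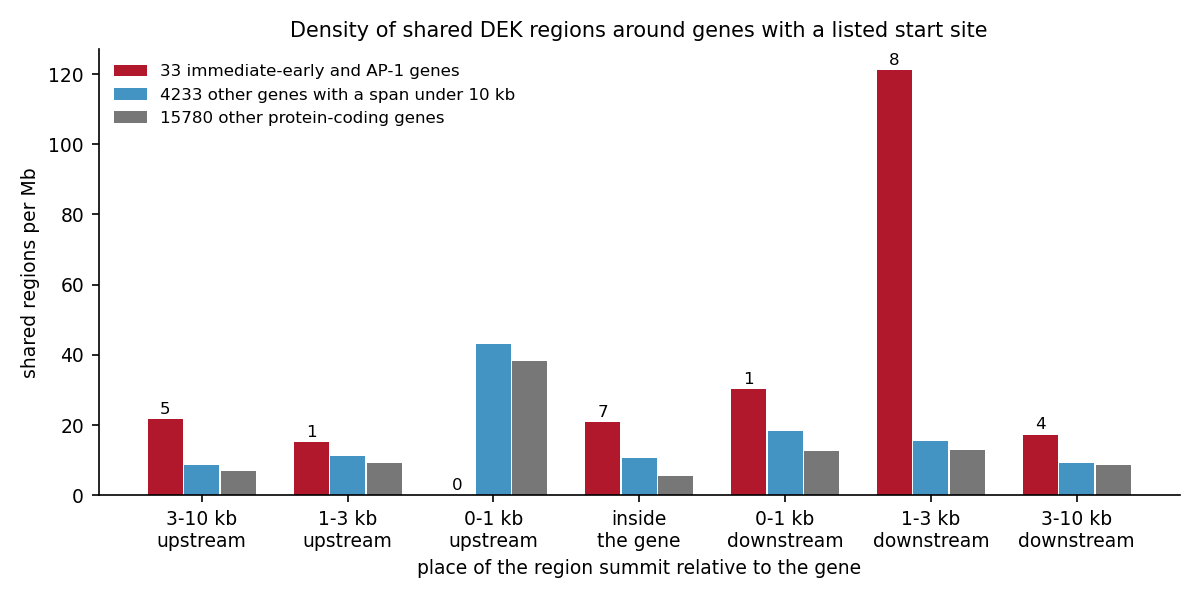
Shared regions per Mb of sequence in 7 places around genes with a listed start: red for 33 immediate-early and AP-1 genes, blue for 4233 other genes with a span under 10 kb, and grey for 15780 other protein-coding genes. Numbers above red bars are region counts. The highest red bar, at 1 to 3 kb downstream, rests on 8 regions, and the red bar at 0 to 1 kb upstream is 0.

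The 8 downstream regions came from 5 genes and are not independent of each other. Both of those at ZFP36 were nearer to PLEKHG2, and that of ID3 also overlaps LOC124903876. The pairs were 352 bp apart at DUSP1, 263 bp at ZFP36L1 and 23 bp at ZFP36. Over the 8 regions the mean fold enrichment ran from 3.16 to 4.13, and the pileup from 24 to 44. The medians of all shared regions were 4.11 and 4.10 in fold and 21 and 22 in pileup. At all 8 the local background, solved from the deposited fold and p, was above the median of all shared regions in both libraries. The share of all shared regions for which this holds is not given here. Each library alone gave more such genes: 8 of 33 with peaks of replicate 1 (24.2%, beside 3.62% of other genes) and 10 of 33 with those of replicate 2 (30.3%, beside 4.72%). Replicate 1 added IER2, PLK2 and PLK3 to the 5, and replicate 2 added BHLHE40, ETS2, FOSL2, KLF2 and PLK2. With a fold enrichment of at least 5 in both libraries no member was left there (beside 0.133% of other genes), and with summits within 100 bp 3 were, DUSP1, ID3 and ZFP36 (beside 1.48%). At PLK2, whose product is a polo-like kinase, the peaks of the libraries did not overlap. Its peak in replicate 1 lay 2860 bp downstream and that in replicate 2 lay 1027 bp downstream.

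By strength, the regions nearest the members had a lower median fold and a higher median pileup than all shared regions. The median fold enrichment of the 13 regions at 1 kb was 3.50 in replicate 1 and 3.72 in replicate 2, beside 4.11 and 4.10 over all shared regions. None of them reached the 75th percentile of fold, and 4 lay above the 50th. The fold was below the median of all regions in both libraries at 6 of the 13 and at 13 of the 34 within 10 kb, whose median fold was 4.11 in replicate 1 and 3.74 in replicate 2. The median pileup of the 13 was 26 in replicate 1 and 30 in replicate 2, beside 21 and 22 over all shared regions. The median local background, solved from the same deposited values, was 6.92 in replicate 1 and 7.79 in replicate 2, beside 4.20 and 4.52. In both libraries the background was above the median of all regions at 12 of the 13, so the fold of these regions was taken over a higher local level. Within 10 kb the background was above the median in both libraries at 27 of 34 regions, and the 2 regions with 5-fold or more in both libraries were those of PLK3 and the far downstream one of DUSP1. The share of all shared regions that lie above, or below, the median in both libraries is not given here. The counts against the median in both libraries thus have no background beside them.

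**Figure D4:**
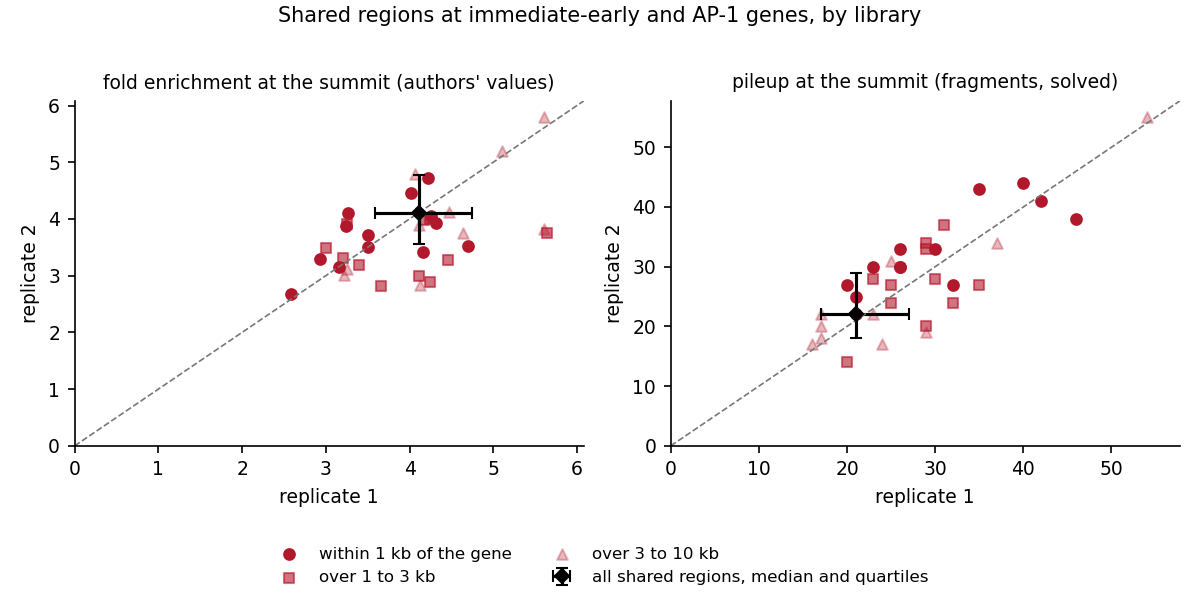
Fold enrichment (left, the authors' values) and summit pileup (right, fragments solved from them) of the 34 regions within 10 kb of members, replicate 1 on the horizontal and replicate 2 on the vertical axis. The diamond is the median of all 12590 shared regions with quartiles, and the dashed line marks equal values. Of the 13 circles, the regions within 1 kb, 6 lie under the diamond's value of fold in both libraries. In pileup, 10 lie over its value in both libraries.

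Of the 23 members with a shared region within 10 kb, 7 gained their first at 3 kb and 5 at 10 kb. At 1 kb the last member included was ID3, whose region began 923 bp from the gene, and the first outside were ZFP36L1 at 1205 bp, DUSP1 at 1213 bp and DUSP5 at 1216 bp. At 3 kb these were JUNB at 2953 bp and JUND at 4510 bp, and at 10 kb IER3 at 7792 bp and KLF2 at 10.1 kb. Of the 34 regions within 10 kb, 8 were nearer to another protein-coding gene, and of the 13 within 1 kb none was.

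Of the 22 members with no shared region within 10 kb, 13 had a peak of 1 or both libraries there and 9 had none. The corresponding share of other genes without a shared region is not given here, so these counts have no background beside them. The 9 without any peak were FOS, EGR2, EGR3, HES1, MAFF, KLF10, DUSP2, DUSP4 and ARC. Replicate 1 alone had a peak at EGR1, CCN2 and KLF4, and replicate 2 alone at JUN, IER5, ID2, BHLHE40, SGK1, DUSP6, GADD45B and KLF2. GADD45A and PLK2 had peaks of both that did not overlap. These 18 peaks had fold enrichments from 2.55 to 4.37, with a median of 3.58, and a median −log10 q of 3.92. The members' shared regions had a median fold of 3.50 in replicate 1 and 3.72 in replicate 2 at 1 kb. At 10 kb it was 4.11 and 3.74. The mean fold of the shared regions within 10 kb ran from 2.63 to 5.7, so the ranges of fold overlap. The nearest shared region to a member without one lay from 10.1 kb away at KLF2 to 564 kb away at PLK2, and that of FOS lay 366 kb away.

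Other genes of the pathway were described by 4 lists. Of 30 early-response and bZIP genes outside the members, 12 had a shared region at 1 kb (40.0%), 13 at 3 kb (43.3%) and 18 at 10 kb (60.0%), beside 24.4%, 26.8% and 32.9% of other protein-coding genes. The highest by fold were TSC22D1 at 5.08 ± 0.458, the bZIP factor gene MAF at 4.72 ± 0.595 and the CREB relative CREM at 4.63 ± 0.846. Of 16 SRF and ternary complex cofactor genes, 7 had 1 at 1 kb (43.8%) and 8 at 3 and at 10 kb, led by ELK3 at 4.78 ± 0.358, FHL2 at 4.74 ± 1.08 and ETS1 at 4.37 ± 0.286. Both lists hold longer genes than the members, with median spans of 18.0 and 78.4 kb.

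Upstream in the pathway, 13 of 31 MAP kinase signalling genes had a shared region at 1 kb (41.9%) and 14 at 3 and at 10 kb (45.2%), beside 24.4%, 26.8% and 32.9% of other protein-coding genes. This list had the highest median span of the 4 lists, 80.6 kb. SPRED2, an inhibitor of RAS signalling, had a region at 6.07 ± 0.826 and the JNK1 gene MAPK8 had one at 4.61 ± 0.133. Of 20 secreted, protease and adhesion targets of AP-1, 8 had 1 at 1 kb (40.0%), 10 at 3 kb and 11 at 10 kb (55.0%), with a median span of 9.01 kb. The highest among them were CD44 at 4.98 ± 0.331, the urokinase receptor gene PLAUR at 4.89 ± 1.37 and the EGF family ligand gene TGFA at 4.36 ± 0.0338 (SD, n = 2 for each). A summit 1 to 3 kb downstream was present at 2 of 24 early-response genes with a listed start, RHOB and MAFG, at 0 of 11 SRF cofactor genes, at 1 of 27 signalling genes, MET, and at 1 of 13 target genes, SPP1. The corresponding share was 15.2% of members and 2.47% of other protein-coding genes.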

How the data were processed

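DEK ChIP-seq peaks of 2 libraries from 786-O cells were analysed from the lists deposited by the authors, 1 per library. Per the submitters' processing notes, the build was GRCh38 (hg38) and the tools, with no roles given, were MACS2 2.2.7.1, Bowtie2 2.2.5, cutadapt 1.18, deepTools 3.5.1, ChIPseeker 1.32.1 and DiffBind 3.6.5. No source used here states if a control library entered the peak calling. The deposited fold enrichment is a linear ratio at the summit, the deposited −log10 p and −log10 q belong to the same position, and the deposited score is 10 times −log10 q cut to a whole number. The last deposited column, an offset, places the summit. The smallest deposited −log10 q was 1.309 and 1.303.

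Peaks off chromosomes 1 to 22 and X were left out (0.591% and 0.500%). Shared regions were formed from peaks of both libraries with an overlap of 1 bp or more, each with the fold of its strongest peak per library and the midpoint of their summits. The pileup was solved from fold and p as a whole number, within a relative tolerance of 5e-05 for 99.995% and 99.996% of peaks. Windows used region overlap, and places relative to a gene used the summit. A gene with several regions is given them all, and genes of the other lists are given the region of highest mean percentile of fold. In those lists the 3 highest genes are named, apart from 1 gene that is not reported here. The members and lists were chosen with earlier results of these data known, and no test was made. Joining and window steps were tested on simulated peaks. Python 3.11.15, pandas 2.3.3, numpy 2.4.6 and scipy 1.17.1 were used.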

Additional observations from a re-analysis of the deposited data

How the results depend on the processing

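The members' counts at 1, 3 and 10 kb depended most on how strong a region had to be. With −log10 q of at least 5 in both libraries 7, 10 and 13 members remained occupied. These were 15.6%, 22.2% and 28.9% of members, beside 11.1%, 12.2% and 15.4% of other genes. With a fold enrichment of at least 5 the counts were 0, 0 and 2, and the difference from other genes was -2.78 points at 3 kb and 0.967 points at 10 kb. Too few regions are left there to give a direction. With summits within 100 bp, 7 members had a region at 1 kb (15.6%, beside 17.7% of other genes). At 3 kb 12 had one (26.7%, beside 19.6%), a difference of 7.09 points, and at 10 kb 15 had one (33.3%, beside 24.4%). With gene ends alone 4 had one at 1 kb (8.89%, beside 7.53%), 16 at 3 kb (35.6%, beside 13.7%) and 23 at 10 kb (51.1%, beside 25.1%). With 1 replicate left out, the counts ran from 13 to 19 at 1 kb, from 25 to 26 at 3 kb and from 28 to 33 at 10 kb, and the differences from other genes from -3.78 to 4.36, from 16.3 to 19.7 and from 18.8 to 23.7 points. The members 1 to 3 kb downstream numbered from 8 to 10 with 1 replicate left out, 3 with summits within 100 bp and 0 with the fold limit. They numbered 4 (12.1%) with the limit on q, beside 0.881% of other genes. The number was also 4 with 50% reciprocal overlap (beside 1.83%) and with every region assigned to the closest gene only (beside 1.22%). The cause of these changes was not tested, beyond the smaller number of regions that stricter settings leave. No paired analysis was possible because there is 1 group only and no test. Depth limits what a missing peak can show.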
